A study of Mus musculus with 10 samples.

Results

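The transcripts described here are 40 genes that mark macrophages, granulocytes, and basophils or mast cells, measured in cultures of mouse CD8+ T cells. Of the 23992 gene symbols listed for each library, 13 members are macrophage genes, 11 are granulocyte genes and 16 are basophil or mast cell genes. The members were chosen by name and with their levels in these same libraries known, so their own values are a description and carry no test. All 40 passed the filter on low read counts, which a gene can pass through 1 group alone.

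The cells were splenic CD8+ T cells of C57BL/6N mice, purified with a CD8+ T cell isolation kit and activated on anti-CD3 with soluble anti-CD28 for 48 h. They were then pooled, washed and cultured again, by the protocol for 48 h unless otherwise specified, in 5 groups of 2 libraries each. The groups received no cytokine, 100 IU/ml human IL-2, 100 ng/ml mouse IL-21, IL-2 with the lactate dehydrogenase inhibitor NCI-737 (LDHi, 1 µM), or IL-21 with LDHi. The inhibitor was present from the time of activation and was added again after washing, so the inhibitor groups differ from the others in both phases. No library had LDHi without a cytokine. Nothing in the labels says whether the 2 libraries of a group came from separate mice or cultures, so the p-values below rest on library-to-library spread, which may be only technical.

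Macrophages, granulocytes and basophils are myeloid cells that arise from bone marrow progenitors, and all of them are also found in the spleen. PU.1, encoded by Spi1, drives macrophage and granulocyte genes, C/EBP alpha, encoded by Cebpa, is needed for granulocytes, and GATA2 is needed for basophils and mast cells. Each lineage is recognised by its effector products, such as lysozyme and complement C1q in macrophages, granule serine proteases in neutrophil precursors, and the IgE receptor and mast cell proteases in basophils. T cells do not normally make most of these products, and a negative selection for CD8+ T cells is meant to remove the cells that do.

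The region before the start of a gene is shown for 4 members whose window holds a match close to the start. All 4 were highest without cytokine and next highest with IL-21, but Prss34 was lower and Csf2rb2 higher with IL-2 plus LDHi than with IL-2. RefSeq promoter windows (GRCm38.p6) were found for 33 of the 40 members, and the 250 bases before the first listed start were searched on both strands. The letters GAGGAA, the core of a PU.1 motif, were in the window of 60% of the 10 granulocyte members, 62.5% of the 8 macrophage members and 60% of the 15 basophil or mast cell members, against 23.3% of 32851 RefSeq promoters. The letters GATAA, the core of the motif of GATA factors, were in 8 of 15 basophil or mast cell members (53.3%), 1 of 10 granulocyte members and 2 of 8 macrophage members, against 22.6% of all promoters. The letters TTGCNNAA, part of a C/EBP motif, were in 3 of 8, 1 of 10 and 2 of 15 members of the macrophage, granulocyte and basophil or mast cell classes, against 9.56% of all promoters. The motifs were not required to be free of overlap with each other, and a match describes letters in the window, not binding. Capitals mark the match. Prtn3 (proteinase 3) and Elane (neutrophil elastase) are neighbouring granulocyte genes that carry GAGGAA 95 and 85 bases before their starts. Prss34, a basophil protease, carries GATAA at 30 bases, and Csf2rb2, which encodes a beta chain of the IL-3 receptor, carries its complement at 38 bases.
Prtn3, chr10:79879417-79879666, plus strand: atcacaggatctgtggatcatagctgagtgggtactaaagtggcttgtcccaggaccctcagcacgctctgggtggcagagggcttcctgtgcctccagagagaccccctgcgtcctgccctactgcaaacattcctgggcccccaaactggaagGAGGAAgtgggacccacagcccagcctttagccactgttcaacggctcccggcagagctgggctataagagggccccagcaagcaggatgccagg
Elane, chr10:79886062-79886311, plus strand: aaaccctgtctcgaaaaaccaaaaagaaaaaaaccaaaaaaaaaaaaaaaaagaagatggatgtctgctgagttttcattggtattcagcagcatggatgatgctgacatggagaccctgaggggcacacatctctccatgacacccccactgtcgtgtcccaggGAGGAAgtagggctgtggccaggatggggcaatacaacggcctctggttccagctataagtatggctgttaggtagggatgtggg
Prss34, chr17:25298144-25298393, plus strand: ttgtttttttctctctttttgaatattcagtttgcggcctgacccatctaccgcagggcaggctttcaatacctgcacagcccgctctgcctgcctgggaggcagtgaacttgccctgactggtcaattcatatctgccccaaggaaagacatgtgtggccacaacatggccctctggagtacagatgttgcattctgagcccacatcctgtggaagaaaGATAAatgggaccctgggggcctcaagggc
Csf2rb2, chr15:78305722-78305971, minus strand: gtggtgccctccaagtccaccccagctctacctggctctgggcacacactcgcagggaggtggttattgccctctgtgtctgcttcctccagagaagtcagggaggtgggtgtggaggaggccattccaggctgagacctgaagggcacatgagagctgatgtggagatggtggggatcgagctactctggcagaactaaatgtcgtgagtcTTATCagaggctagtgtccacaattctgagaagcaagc

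Several members are close neighbours in the genome. Prtn3 and Elane lie 3.1 kb apart on chromosome 10, the 3 C1q genes lie within 3.0 to 3.6 kb of one another in order on chromosome 4, and Ms4a2 and Ms4a3 lie 5.7 kb apart on chromosome 19. Mcpt8 and Ctsg, proteases of basophils and of neutrophil precursors, lie 14.4 kb apart on chromosome 14, and the T cell granzymes Gzmc and Gzmb lie 129 to 173 kb from them on the same chromosome. Gzmb, a cytotoxic granule protease, stood at 22.2 and 13.3 RPKM (reads scaled to transcript length and library total) without cytokine, 1148 and 1027 with IL-2, 672 and 692 with IL-21, 83.4 and 92.8 with IL-2 plus LDHi, and 2.22 and 1.65 with IL-21 plus LDHi. Gzmb was higher and Mcpt8 lower with either cytokine than without, whereas both genes were lower with the inhibitor than without it under either cytokine.

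The libraries held 45138204 to 62848913 reads by the depositors' totals, of which 27137186 to 46656186 fell on the 1 transcript kept per gene. The second IL-21 library had the lowest share on kept transcripts, 59.85%, and the 2 IL-21 libraries differed most from each other, with an SD of log2 differences over genes of 0.76 against 0.302 in the closest pair, the IL-2 plus LDHi libraries. The labelled cell type was checked on 12 CD8+ T cell markers, whose summed level was 1803 to 2629 RPKM in all 10 libraries, with Cd8a (the CD8 alpha chain) between 173 and 307 RPKM. Markers of other cell types also varied. A list of 15 erythroid and megakaryocyte genes summed to 447 to 694 RPKM without cytokine, 268 to 299 with IL-21 and 10.47 to 20.2 in the 3 other groups. A list of 13 dendritic cell genes summed to 178 to 194 RPKM without cytokine, 53.1 to 88.5 with IL-21 and 13.4 to 62.2 in the 3 other groups. The 10 B cell genes listed summed to 22.1 to 24.5 RPKM in the first libraries of the no cytokine, IL-21 and IL-21 plus LDHi groups and to 6.63 to 11.1 RPKM in the other 7 libraries. The part of these cells in the results below was not tested.

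The 40 members together took 0.145% and 0.277% of the reads on kept transcripts in the 2 libraries without cytokine. They took 0.0528% and 0.0815% with IL-21, and 0.00652% to 0.0102% in the 6 libraries with IL-2, IL-2 plus LDHi or IL-21 plus LDHi. In 37 of 40 members both libraries without cytokine stood above the other 8 libraries, and in 33 of 40 both IL-21 libraries came next, above the remaining 6. The share of all genes in these orders was not counted, and the members were chosen with their levels known. The second library without cytokine was higher than the first in 38 of 40 members, by a median of 1.78 times. In bulk RNA, fewer cells of a type and less RNA per cell cannot be told apart.

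**Figure D1:**
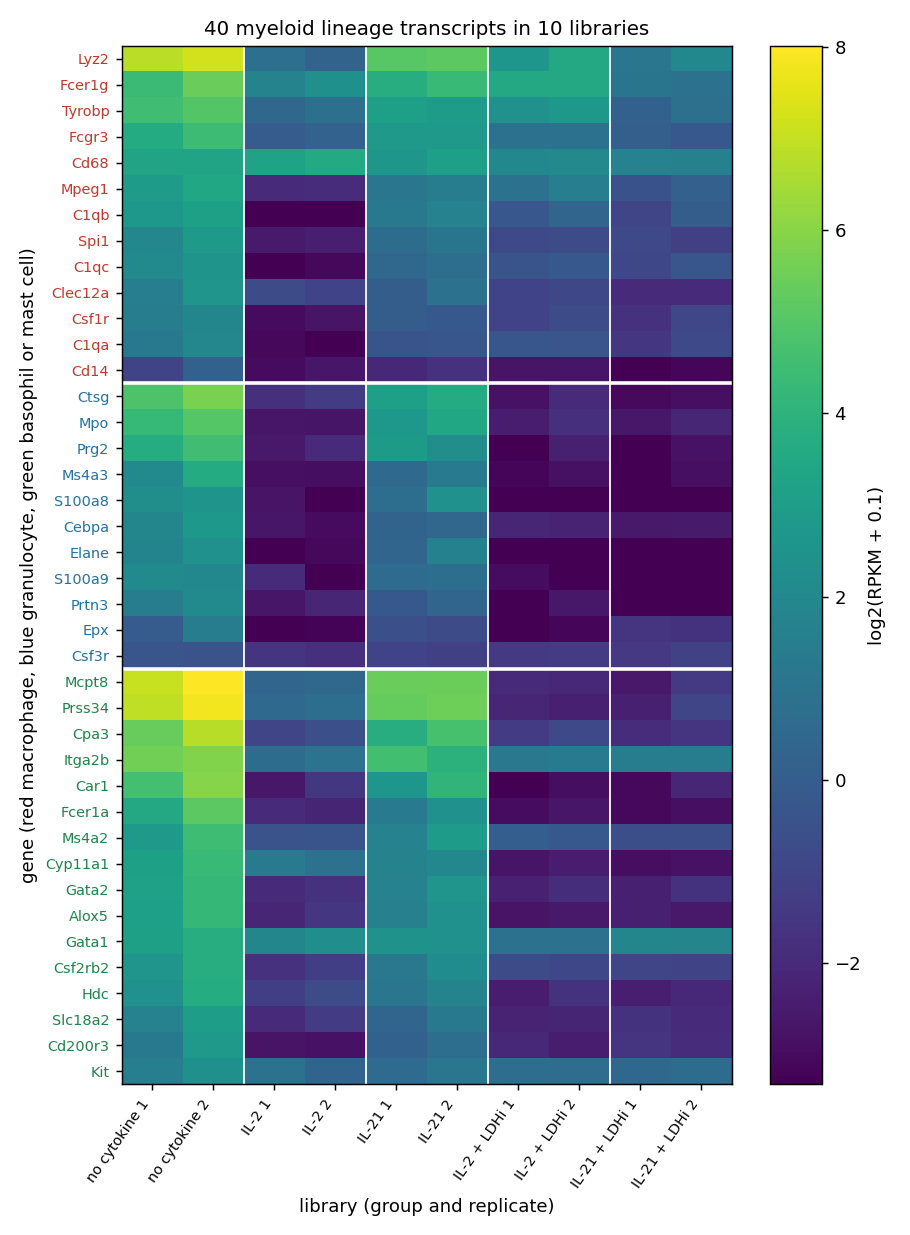
Heat map of log2(RPKM + 0.1) for the 40 members (rows, by class and then by mean level without cytokine) in the 10 libraries (columns, group and replicate). The 2 columns without cytokine are the brightest in 37 of 40 rows, and the 2 IL-21 columns come next in 33 of 40. The rows were chosen with these levels known.

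The summed levels of the 3 classes took different courses over the groups. Summed over the class, the macrophage members stood at 210 and 300 RPKM without cytokine, 17.1 and 21.96 with IL-2, 77.8 and 91.6 with IL-21, 33.8 and 41.7 with IL-2 plus LDHi, and 11.9 and 15.1 with IL-21 plus LDHi. The granulocyte members stood at 85.0 and 148 RPKM without cytokine and 30.7 and 43.2 with IL-21, and at 0.583 to 1.01 RPKM in all 6 other libraries. The basophil or mast cell members stood at 440 and 892 RPKM without cytokine, 14.1 and 15.7 with IL-2, 154 and 194 with IL-21, 8.26 and 8.46 with IL-2 plus LDHi, and 9.70 and 10.6 with IL-21 plus LDHi. Only the macrophage sum was higher with IL-2 plus LDHi than with IL-2 in both libraries. The ratio of the macrophage sum to the basophil or mast cell sum was 0.477 and 0.337 without cytokine and 0.506 and 0.472 with IL-21. It was 1.21 and 1.40 with IL-2, 1.22 and 1.43 with IL-21 plus LDHi, and 4.09 and 4.93 with IL-2 plus LDHi, so that the IL-2 plus LDHi libraries stood alone at the top. These sums are led by few genes, since Lyz2 alone made up 113 of the 210 macrophage RPKM in the first library without cytokine, and Mcpt8 and Prss34 made up 133 and 121 of the 440 basophil or mast cell RPKM there.

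**Figure D2:**
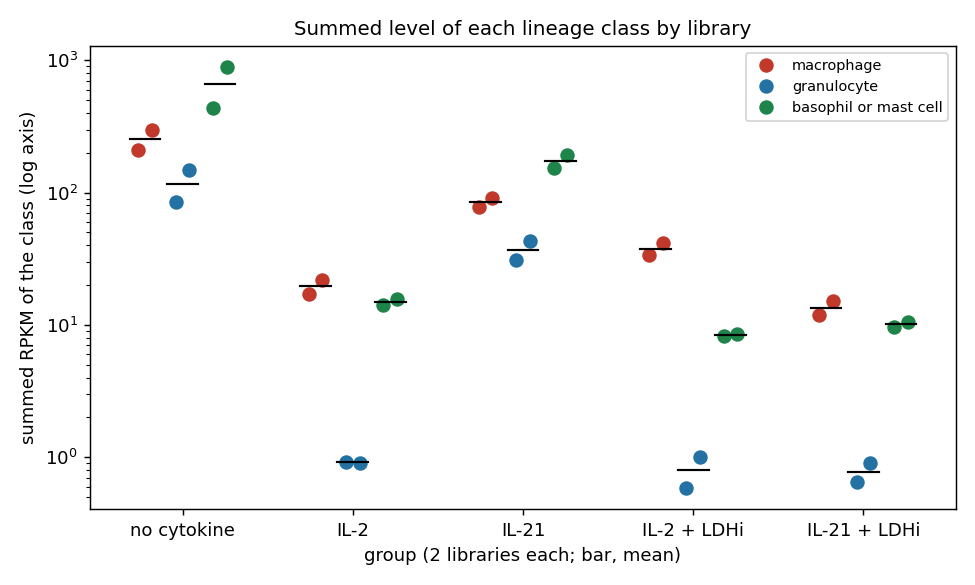
Summed RPKM of the 13 macrophage, 11 granulocyte and 16 basophil or mast cell members (log axis) in each library, by group; points are libraries and bars are means of 2. The macrophage points rise from 17.1 and 21.96 with IL-2 to 33.8 and 41.7 with IL-2 plus LDHi, while the basophil or mast cell points go from 14.1 and 15.7 to 8.26 and 8.46.

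The transcription factors of the lineages were themselves among the members. Spi1, which encodes PU.1, stood at 3.74 and 6.61 RPKM without cytokine, 0.0755 and 0.0950 with IL-2, 1.51 and 2.00 with IL-21, 0.466 and 0.530 with IL-2 plus LDHi, and 0.474 and 0.344 with IL-21 plus LDHi. Cebpa stood at 3.60 and 6.41 RPKM without cytokine, 0.0611 and 0.0274 with IL-2, 1.11 and 1.24 with IL-21, 0.133 and 0.118 with IL-2 plus LDHi, and 0.0696 and 0.0756 with IL-21 plus LDHi. For both genes the groups without cytokine, with IL-21 and with IL-2 did not overlap. Gata2 stood at 8.91 and 18.6 RPKM without cytokine, 0.155 and 0.206 with IL-2, 3.16 and 5.86 with IL-21, 0.108 and 0.179 with IL-2 plus LDHi, and 0.101 and 0.215 with IL-21 plus LDHi. Its last 3 low groups overlapped one another. Gata1, a factor of erythroid cells, megakaryocytes, eosinophils and mast cells, stood at 8.48 and 13.4 RPKM without cytokine, 3.58 and 4.58 with IL-2, 5.36 and 5.16 with IL-21, 1.79 and 1.801 with IL-2 plus LDHi, and 3.57 and 3.47 with IL-21 plus LDHi. Gata1 stood at 16.4% or more of its mean without cytokine in every group, unlike the other 3 factors.

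Among macrophage members, the effector product Lyz2 (lysozyme) was the most abundant. Lyz2 stood at 113 and 149 RPKM without cytokine, 1.66 and 1.11 with IL-2, 33.4 and 35.8 with IL-21, 6.13 and 11.2 with IL-2 plus LDHi, and 2.06 and 3.81 with IL-21 plus LDHi. Mpeg1, the pore-forming protein perforin-2, stood at 7.51 and 11.01 RPKM without cytokine, 0.158 and 0.175 with IL-2, 2.09 and 2.61 with IL-21, 1.79 and 2.80 with IL-2 plus LDHi, and 0.625 and 0.998 with IL-21 plus LDHi. In Lyz2 and Mpeg1 both IL-2 plus LDHi libraries lay above both IL-2 libraries, and the IL-2 plus LDHi and IL-21 libraries overlapped for Mpeg1 but not for Lyz2. C1qb, a chain of complement C1q, stood at 6.57 and 8.59 RPKM without cytokine and had 0 reads in both IL-2 libraries, which at a floor of 3 reads over the group is at least 278-fold lower. It returned to 0.749 and 1.19 RPKM with IL-2 plus LDHi, at least 34.99-fold above IL-2 on the same floor, and stood at 2.29 and 3.14 RPKM with IL-21 and 0.422 and 0.901 with IL-21 plus LDHi. C1qb is given by library because of this pattern, which was seen before it was chosen. C1qa and C1qc, the other C1q chains, each had 1 read in the 2 IL-2 libraries together, against 85 and 83 reads with IL-2 plus LDHi. Lyz2 has a near-identical neighbour, Lyz1, and how reads that fit both were handled is not stated in the labels, so its level is uncertain by that share.

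The receptors and signalling chains of macrophages behaved less uniformly. Csf1r, the receptor for macrophage colony-stimulating factor, stood at 2.61 and 3.62 RPKM without cytokine, 0.0260 and 0.0513 with IL-2, 0.922 and 0.757 with IL-21, 0.386 and 0.498 with IL-2 plus LDHi, and 0.210 and 0.427 with IL-21 plus LDHi. Its exons overlap those of Hmgxb3 on the opposite strand by 873 bases, and whether counting used strand is not stated in the labels. Fcgr3, a low-affinity IgG receptor, stood at 12.5 and 21.5 RPKM without cytokine, 0.892 and 1.08 with IL-2, 6.67 and 6.67 with IL-21, 1.82 and 1.81 with IL-2 plus LDHi, and 0.994 and 0.766 with IL-21 plus LDHi. Fcer1g, the Fc receptor gamma chain that macrophages, basophils, mast cells and NK cells share, stood at 21.2 and 42.4 RPKM without cytokine, 3.24 and 5.03 with IL-2, 13.4 and 20.7 with IL-21, 11.5 and 11.3 with IL-2 plus LDHi, and 2.01 and 1.82 with IL-21 plus LDHi. Fcer1g with IL-2 plus LDHi was thus 35.8% of its mean without cytokine, against 13.0% with IL-2. Tyrobp, the DAP12 adaptor of myeloid and NK cell receptors, stood at 23.4 and 31.4 RPKM without cytokine, 1.28 and 1.73 with IL-2, 8.24 and 7.40 with IL-21, 5.29 and 6.53 with IL-2 plus LDHi, and 1.04 and 1.73 with IL-21 plus LDHi. The 5 NK and innate lymphocyte markers summed to 21.4 to 22.7 RPKM with IL-2, 41.6 to 42.5 with IL-2 plus LDHi and 11.4 to 11.5 with IL-21 plus LDHi. Unlike Fcer1g and Tyrobp, their sum was not highest without cytokine, at 19.4 to 25.6 RPKM, and was 19.4 to 19.9 with IL-21. Eomes made up most of this sum in every library, with means of 19.8 RPKM with IL-2 and 30.1 with IL-2 plus LDHi. The sum hides larger changes at low levels. Mean Ncr1 was 0.158 RPKM without cytokine, 0.0928 with IL-2 and 4.12 with IL-2 plus LDHi. Mean Klrb1c was 0.440, 0.759 and 4.36 RPKM in the same groups. With IL-2 plus LDHi against IL-2, 4 of the 5 markers were called higher and 0 lower, against 17.8% and 21.6% of all genes. The part of NK cells was not tested. Cd68, a lysosomal membrane protein of macrophages, was the exception to the pattern of its class. Cd68 stood at 9.59 and 9.76 RPKM without cytokine, 9.18 and 12.2 with IL-2, 6.35 and 8.25 with IL-21, 3.85 and 3.89 with IL-2 plus LDHi, and 3.15 and 2.97 with IL-21 plus LDHi. The IL-2 and no cytokine libraries overlapped for Cd68, and all 4 libraries with LDHi were below the 6 without it. Cd14, a co-receptor for lipopolysaccharide, and Clec12a, an inhibitory lectin of myeloid cells, were the 2 remaining members of the class, at 0.403 to 1.05 and 2.75 to 5.89 RPKM without cytokine and at most 0.525 RPKM in every library with IL-2, IL-2 plus LDHi or IL-21 plus LDHi.

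The granulocyte members were nearly silent outside the no cytokine and IL-21 groups. Ctsg, the granule protease cathepsin G, stood at 28.4 and 52.2 RPKM without cytokine, 0.201 and 0.289 with IL-2, 8.43 and 12.3 with IL-21, 0.0476 and 0.166 with IL-2 plus LDHi, and 0.0203 and 0.0398 with IL-21 plus LDHi. Mpo, myeloperoxidase of early granulocyte precursors, stood at 19.4 and 32.2 RPKM without cytokine, 0.0632 and 0.0568 with IL-2, 6.55 and 10.54 with IL-21, 0.0875 and 0.196 with IL-2 plus LDHi, and 0.0640 and 0.133 with IL-21 plus LDHi. Both enzymes were therefore over 1 RPKM in 4 libraries only. Prg2, the major basic protein of eosinophil granules, stood at 12.9 and 23.0 RPKM without cytokine, 0.0720 and 0.151 with IL-2, 7.23 and 4.82 with IL-21, 0 and 0.0991 with IL-2 plus LDHi, and 0 and 0.0476 with IL-21 plus LDHi. Ms4a3, a marker of granulocyte and monocyte progenitors, stood at 4.17 and 12.5 RPKM without cytokine, 0.0398 and 0.0357 with IL-2, 1.38 and 2.42 with IL-21, 0.0157 and 0.0410 with IL-2 plus LDHi, and 0 and 0.0394 with IL-21 plus LDHi. S100a8, a calcium-binding alarmin of neutrophils, stood at 4.71 and 5.65 RPKM without cytokine, 0.0513 and 0 with IL-2, 1.63 and 5.23 with IL-21, and had 0 reads in the 4 libraries with LDHi. Its 2 IL-21 libraries had a larger ratio to each other than those of any other granulocyte member, and the second overlapped the level without cytokine. With IL-21 plus LDHi, S100a8 was at least 42.6-fold, S100a9 at least 26.2-fold, Elane at least 62.1-fold and Prtn3 at least 30.9-fold below IL-21, each against a floor of 3 reads over the group.

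Epx and Csf3r departed from the rest of the granulocyte class. Epx, eosinophil peroxidase, is given by library because of its values, and stood at 0.877 and 2.70 RPKM without cytokine, 0 and 0.00672 with IL-2, 0.587 and 0.516 with IL-21, 0 and 0.0154 with IL-2 plus LDHi, and 0.227 and 0.215 with IL-21 plus LDHi. Over both libraries that was 59 reads with IL-21 plus LDHi against 2 with IL-2 plus LDHi, a ratio of 33.0 (95% interval 8.74 to 279, counting error only). Mpo, which lies 59.6 kb from Epx on chromosome 11, did not show this difference. Csf3r, the receptor for granulocyte colony-stimulating factor, stood at 0.681 and 0.646 RPKM without cytokine, 0.221 and 0.190 with IL-2, 0.380 and 0.339 with IL-21, 0.269 and 0.308 with IL-2 plus LDHi, and 0.266 and 0.357 with IL-21 plus LDHi. Its lowest group mean was 31.0% of that without cytokine, whereas the class median with IL-2 was 0.608%.

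**Figure D3:**
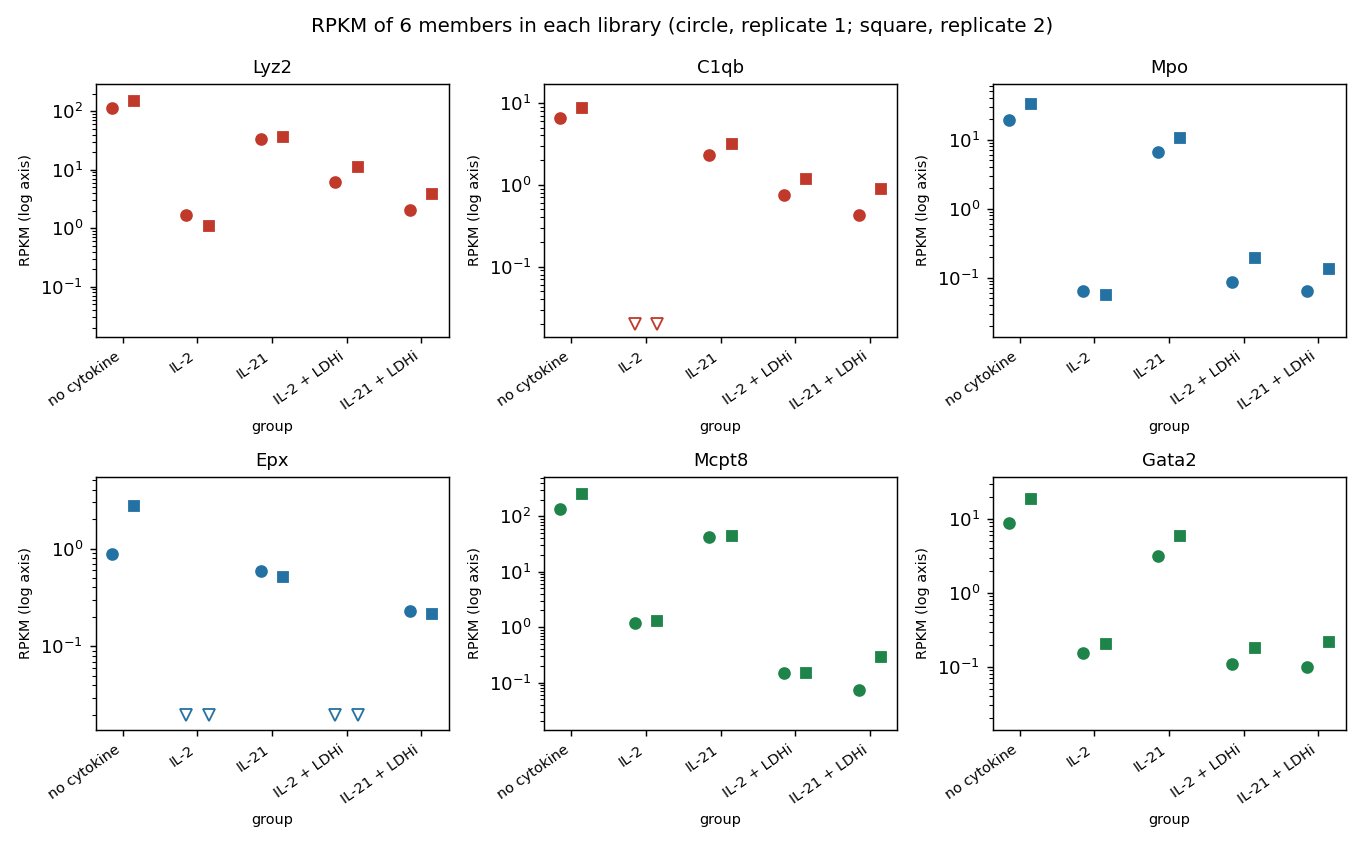
RPKM of Lyz2, C1qb, Mpo, Epx, Mcpt8 and Gata2 in each library (log axes); circles are replicate 1, squares replicate 2, and hollow triangles mark libraries below 0.02 RPKM. Mpo and Gata2 lie low in the 6 libraries with IL-2, IL-2 plus LDHi or IL-21 plus LDHi, whereas Lyz2 and C1qb are higher with IL-2 plus LDHi than with IL-2, and Epx is at 0.227 and 0.215 with IL-21 plus LDHi.

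Without cytokine and with IL-21 the basophil or mast cell members had the highest summed level of the 3 classes, and in the other 6 libraries the macrophage sum was higher. Mcpt8, a basophil-specific protease, stood at 133 and 257 RPKM without cytokine, 1.201 and 1.27 with IL-2, 42.4 and 44.4 with IL-21, 0.152 and 0.149 with IL-2 plus LDHi, and 0.0730 and 0.285 with IL-21 plus LDHi. Prss34, whose promoter window is printed above, stood at 121 and 225 RPKM without cytokine, 1.36 and 1.62 with IL-2, 40.2 and 45.3 with IL-21, 0.131 and 0.102 with IL-2 plus LDHi, and 0.101 and 0.410 with IL-21 plus LDHi. For both proteases the 4 libraries with LDHi lay below the 2 with IL-2. Cpa3, carboxypeptidase A3 of mast cells and basophils, stood at 41.3 and 112 RPKM without cytokine, 0.415 and 0.585 with IL-2, 13.3 and 25.7 with IL-21, 0.296 and 0.472 with IL-2 plus LDHi, and 0.168 and 0.233 with IL-21 plus LDHi. Fcer1a, the alpha chain of the high-affinity IgE receptor, stood at 11.3 and 36.0 RPKM without cytokine, 0.157 and 0.123 with IL-2, 2.55 and 5.27 with IL-21, 0.0310 and 0.0607 with IL-2 plus LDHi, and 0.0199 and 0.0389 with IL-21 plus LDHi. Fcer1a was among the members that differed most between the 2 libraries without cytokine. Car1, carbonic anhydrase 1 of erythroid and other progenitors, stood at 24.3 and 62.7 RPKM without cytokine, 0.0680 and 0.260 with IL-2, 6.04 and 16.9 with IL-21, 0 and 0.0351 with IL-2 plus LDHi, and 0.0172 and 0.135 with IL-21 plus LDHi. Itga2b, the integrin alpha IIb chain that megakaryocytes and early progenitors also carry, stood at 48.0 and 58.9 RPKM without cytokine, 1.505 and 1.92 with IL-2, 23.5 and 15.3 with IL-21, 2.24 and 2.34 with IL-2 plus LDHi, and 2.71 and 2.73 with IL-21 plus LDHi. Itga2b thus ran opposite to Mcpt8 with the inhibitor in IL-2 cells, at a low level in both groups.

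Kit and Cyp11a1 had patterns of their own. Kit, the stem cell factor receptor of mast cells and progenitors, stood at 2.81 and 4.99 RPKM without cytokine, 1.77 and 1.17 with IL-2, 1.44 and 2.06 with IL-21, 1.62 and 1.54 with IL-2 plus LDHi, and 1.27 and 1.51 with IL-21 plus LDHi. All 8 libraries with a cytokine lay between 1.17 and 2.06 RPKM, below both without. Cyp11a1, the first enzyme of steroid synthesis, is given by library because of its values, and stood at 8.57 and 20.7 RPKM without cytokine, 2.37 and 1.83 with IL-2, 3.28 and 3.85 with IL-21, 0.0538 and 0.0819 with IL-2 plus LDHi, and 0.0345 and 0.0450 with IL-21 plus LDHi. All 4 libraries with LDHi were at 0.0819 RPKM or less, and all 6 without it were at 1.83 RPKM or more. The other basophil or mast cell members were Ms4a2 (the IgE receptor beta chain), Hdc (histidine decarboxylase, which makes histamine), Cd200r3 (an activating receptor of basophils), Alox5 (5-lipoxygenase, which starts leukotriene synthesis), Slc18a2 (a vesicular monoamine transporter) and Csf2rb2. Their mean levels without cytokine were 4.65 to 14.7 RPKM, and with IL-2, IL-2 plus LDHi or IL-21 plus LDHi each of the 6 was at 0.935 RPKM or less in every library. Csf2rb2 has a close relative, Csf2rb, and reads may be split between them.

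**Figure D4:**
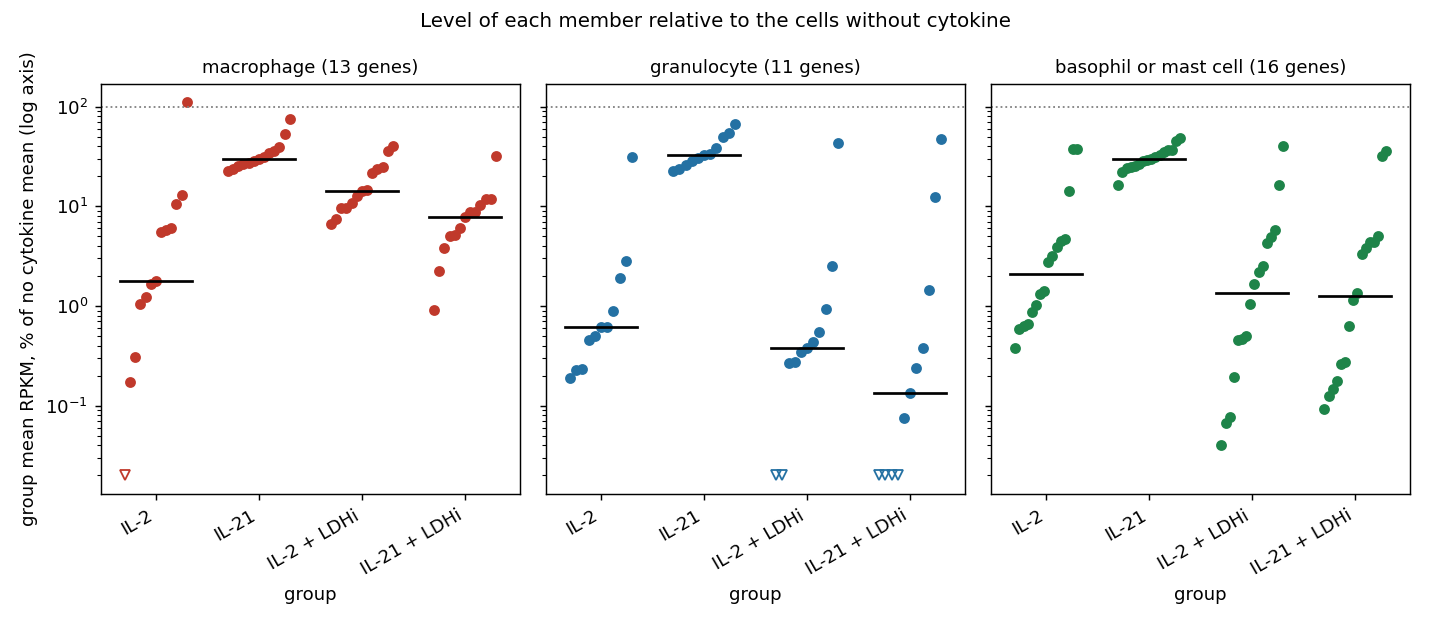
Group mean RPKM of each member as a percent of its mean without cytokine (log axis), by class and group; points are genes, bars class medians, hollow triangles genes below 0.02%, and the dotted line 100%. The class medians with IL-21 lie at 29.7% to 33.1%, and with IL-2 plus LDHi they spread from 0.381% for granulocyte to 14.2% for macrophage members.

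Relative to the mean without cytokine, the median macrophage, granulocyte and basophil or mast cell member stood at 29.8%, 33.1% and 29.7% with IL-21, so the 3 classes had like medians in that group. With IL-2 the medians were 1.798%, 0.608% and 2.08%. With IL-2 plus LDHi they were 14.2%, 0.381% and 1.36%, and with IL-21 plus LDHi 7.90%, 0.133% and 1.25%. Both IL-2 plus LDHi libraries lay above both IL-2 libraries in 10 of 13 macrophage members, 3 of 11 granulocyte members and 4 of 16 basophil or mast cell members, and below them in 1, 1 and 9. Both IL-21 plus LDHi libraries lay below both IL-21 libraries in 13, 10 and 15 members, and above them in none. Between the 2 inhibitor groups, 9 macrophage members were higher with IL-2 and the other 4 overlapped. The share of all genes whose libraries separate in these ways was not counted. These counts therefore describe the members and do not show that a class stands out.

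Across the 10 libraries the classes varied together, as correlations of log2 CPM (counts scaled to library size) show, given here as a description over libraries that fall in 5 groups. The median Pearson correlation between 2 members was 0.961 within the granulocyte class, 0.947 within the basophil or mast cell class and 0.879 within the macrophage class. Between granulocyte and basophil or mast cell members it was 0.952, and between macrophage and basophil or mast cell members it was 0.792. Among tested genes outside the 40, the pattern most like that of Lyz2 belonged to Lyz1, with a correlation of 0.996. Lyz1 is near-identical to Lyz2, and the part of reads that fit both in this value was not tested. Pla2g7, Tnfaip2, Slc7a8 and Tspan33 followed at 0.986 to 0.988. Mpo was most like Dhrs3 (0.996), then Fhl1, Slc6a4, Kalrn and Prg3. Mcpt8 was most like Rab44 (0.997), then Csgalnact1, Gnaz, Spint1 and Slc22a3.

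The fits across 14357 genes give the share of all genes called in each comparison. With IL-2 against no cytokine, 24.8% of all genes tested were called lower and 25.6% higher by edgeR's quasi-likelihood test at a Benjamini-Hochberg adjusted p below 0.05, and 39 of the 40 members were among the lower ones. With IL-21 against no cytokine, 5.89% of genes were called lower and 5.65% higher, and 18 members were lower. That count rested on few libraries: it was 3 without the second library without cytokine, 32 without the second IL-21 library, and 0 when only these 2 groups were fitted. It was 29 with DESeq2 and also 29 with a replicate block. With IL-21 against IL-2, 24.9% were called higher and 24.7% lower, and 36 members were higher. Since the members were chosen with these contrasts known, nothing is read from their counts here.

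The inhibitor comparisons had lower backgrounds in 1 direction than the other. With IL-2 plus LDHi against IL-2, 17.8% of genes were called higher and 21.6% lower, and 11 members were higher and 5 lower. The 5 lower became 8 when only these 2 groups were fitted and 9 with a replicate block. With IL-21 plus LDHi against IL-21, 11.1% were higher and 20.3% lower, and 35 members were lower and none higher. Between IL-21 plus LDHi and IL-2 plus LDHi, 9.38% were higher and 16.7% lower, with 2 members higher (Epx and Gata1) and 4 macrophage members lower. Those 4 became 2 without the second IL-2 plus LDHi library or without the first IL-21 plus LDHi library, and the 2 higher became 1 without the second IL-2 plus LDHi library. For the interaction, which asks whether the inhibitor's log2 change differs between IL-21 and IL-2 cells, 13.8% of genes were lower and 7.98% higher. Among the members, 26 were lower and none higher. The members were chosen with these contrasts known too, so nothing is read from their counts.

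Lineage genes outside the 40 allow tests on values that did not choose the members, although these lists too were drawn up with earlier results known. They comprise 50 macrophage, 29 granulocyte and 34 basophil or mast cell genes listed for the libraries, of which 49, 19 and 25 passed the filter on low counts and were tested. These genes too can pass that filter through 1 group alone. Hp, for one, had 64 reads in each library without cytokine and at most 1 in each with IL-2 or LDHi. In fits of only the groups compared, 72 were tested for IL-2 plus LDHi against IL-2 and 69 between the 2 inhibitor groups, instead of 93. Several of them, such as Ccr2, Axl, Itga2, Il4 and Il13, are also expressed by activated T cells.

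With IL-2 against no cytokine, most of these further genes fell. Over all genes tested, 24.8% were called lower and 25.6% higher. Of 49 macrophage genes 43 were called lower and 2 higher, 13 of 19 granulocyte genes lower and 2 higher, and 16 of 25 basophil or mast cell genes lower and 3 higher, with median log2 fold changes of -3.37, -4.04 and -2.75 against -0.03 over all genes. Sirpa, an inhibitory receptor of macrophages, went from 6.47 ± 1.46 RPKM (SD, n = 2) without cytokine to 0.107 ± 0.00459 RPKM with IL-2, a log2 fold change of -5.92 (SE 0.41, edgeR adjusted p = 1.05e-05). Clec4n, the lectin dectin-2, fell by 5.47 (SE 0.41, adjusted p = 1.42e-05), and Cfp, the complement factor properdin, fell by 3.37 (SE 0.25, adjusted p = 1.34e-05). The granulocyte genes Hp (haptoglobin) and Mmp25 (a leukocyte metalloproteinase) fell by 6.74 and 4.04 (edgeR adjusted p = 0.000136 and 0.000133). Among basophil or mast cell genes, the serotonin transporter Slc6a4 fell from 5.98 ± 2.07 to 0.0597 ± 0.0192 RPKM (n = 2, log2 fold change -6.66, edgeR adjusted p = 4.44e-06), and the cyclooxygenase Ptgs1 fell by 5.51. Ltb4r1, a leukotriene B4 receptor that activated T cells also carry, rose by 2.29 (SE 0.27, edgeR adjusted p = 0.000152). The 2 higher granulocyte calls became 1 without the second no cytokine library or without either IL-2 library.

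With IL-21 against no cytokine, 19 of the 93 further genes were called lower and 1 higher, against 5.89% and 5.65% of all genes. The median log2 fold changes were -1.19 for macrophage, -0.73 for granulocyte and -1.15 for basophil or mast cell genes, against -0.01 over all genes. The higher one was Ccr2, a chemokine receptor of monocytes and T cells, which rose from 7.95 ± 1.54 to 45.4 ± 11.2 RPKM (n = 2, log2 fold change 2.71, edgeR adjusted p = 0.000571). Clec4n fell by 2.28 (SE 0.33, edgeR adjusted p = 0.00408), Cfp by 1.34 and Grm6, a glutamate receptor gene, by 1.21. The arachidonate pathway gene Alox5ap fell by 1.495 and lost its call without the second no cytokine library. Cd63, Mmp9, Lcn2 and Fpr2 had adjusted p-values of 0.0305 to 0.0457 and lost their calls under 5 or more of the libraries left out. The count of lower calls was 4 without the second no cytokine library, 10 without either IL-2 library, 9 without either IL-2 plus LDHi library and 38 without the second IL-21 library. It was 0 when only the 2 groups were fitted and 30 with a replicate block.

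With IL-21 against IL-2, the further genes were mostly higher. Over all genes tested, 24.9% were called higher and 24.7% lower. The counts were 38 higher and 1 lower of 49 macrophage genes, 10 and 2 of 19 granulocyte genes, and 14 and 3 of 25 basophil or mast cell genes. Their median log2 fold changes were 2.27, 3.04 and 2.496, against 0.02 over all genes. With a floor of 3 reads for genes at 0, the macrophage median was 2.16. Mrc1, the mannose receptor of macrophages, rose by 5.89 (SE 0.56, edgeR adjusted p = 6.45e-05), from 0.0110 ± 0.00589 RPKM with IL-2 to 0.576 ± 0.159 RPKM with IL-21 (n = 2). Sirpa rose by 4.12, Hp by 5.22, Slc6a4 by 5.70, Ptgs1 by 4.48 and Grm6 by 3.22. Ltb4r1 fell by 2.89 and Axl, a receptor for apoptotic cells, fell by 1.95 (SE 0.18, edgeR adjusted p = 5.93e-05). Il4 and Il13, type 2 cytokines of basophils that T cells also make, were among the 3 basophil or mast cell genes called lower. The 1 lower macrophage call became 2 without the first IL-2 library.

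**Figure D5:**
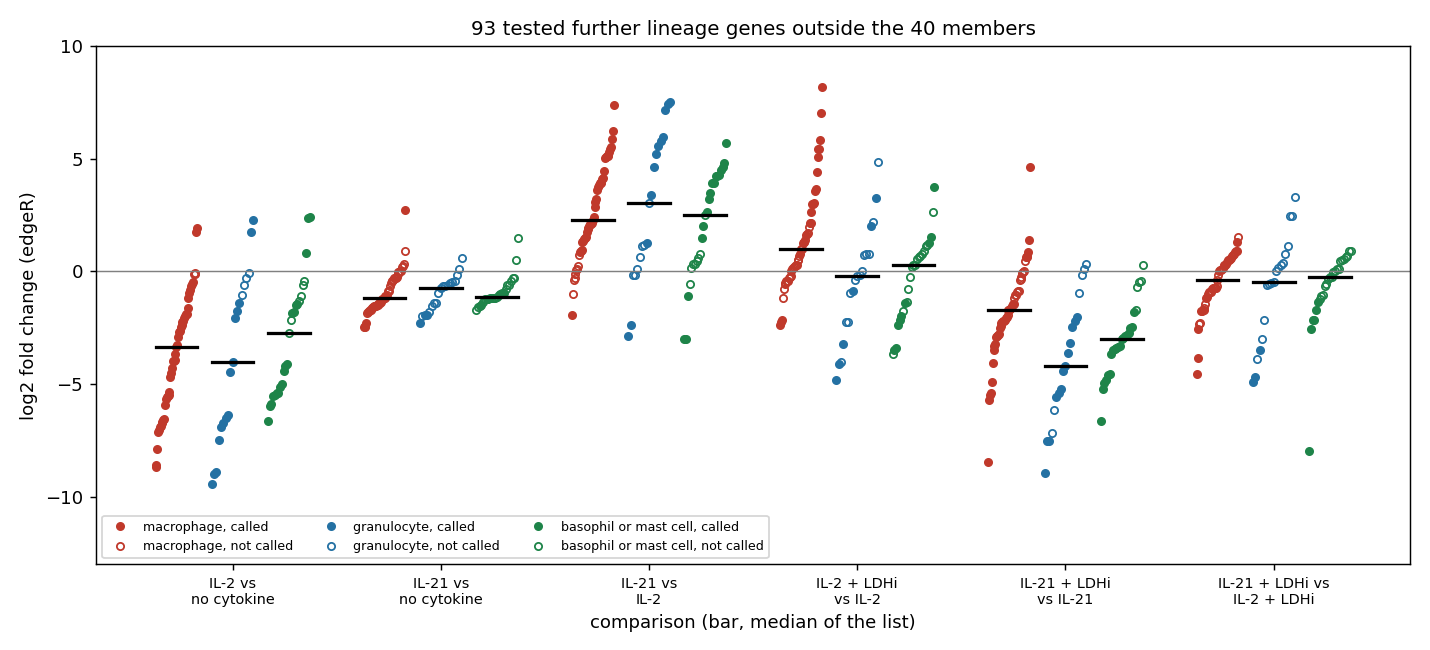
Log2 fold changes of the 93 tested lineage genes outside the 40 members, by comparison and lineage; filled points were called at an adjusted p below 0.05, hollow ones were not, and bars are list medians. The medians lie at -2.75 to -4.04 for IL-2 against no cytokine, and for IL-2 plus LDHi against IL-2 they are 0.99 for macrophage, -0.22 for granulocyte and 0.29 for basophil or mast cell genes.

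With IL-2 plus LDHi against IL-2, each lineage had calls in both directions, and those of macrophage genes were mostly higher. Of 49 macrophage genes 18 were called higher and 2 lower (median log2 fold change 0.99), of 19 granulocyte genes 2 higher and 4 lower (-0.22), and of 25 basophil or mast cell genes 3 higher and 6 lower (0.29), against 17.8% and 21.6% of all genes. With genes that had 0 reads in 1 group set at a floor of 3 reads, the granulocyte median was 0.00 and the other 2 were as given. Cd5l, a secreted scavenger protein of tissue macrophages, was at 0.00494 ± 0.00699 RPKM (1 read in the 2 libraries) with IL-2 and 1.77 ± 0.0804 RPKM with IL-2 plus LDHi (n = 2). Its libraries held 219 and 179 reads with IL-2 plus LDHi, 147 and 235 with IL-21 plus LDHi, and at most 21 reads in each of the other 6, so Cd5l was higher in both inhibitor groups than without cytokine. Sirpa rose by 3.58 (SE 0.39, edgeR adjusted p = 0.000191), Grm6 by 3.75 and Mmp25 by 3.24. Axl fell by 2.17, Il1r2 (a decoy receptor for IL-1) by 4.11, and Lyl1 (a progenitor transcription factor) fell by 3.50. Ifitm1, an interferon-induced membrane protein, fell by 3.41. The lineage counts moved when libraries were left out: the 2 lower macrophage calls became 4 without the first IL-21 library and 1 without the first IL-2 plus LDHi library. The 2 higher granulocyte calls became 1 without the second IL-2 or the second IL-2 plus LDHi library and 4 without either IL-21 library, and the 3 higher basophil or mast cell calls became 1 without any 1 of the IL-2 or IL-2 plus LDHi libraries and 5 without either no cytokine library. When only the IL-2 and IL-2 plus LDHi groups were fitted, 5 macrophage genes were called lower and 8 basophil or mast cell genes higher.

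With IL-21 plus LDHi against IL-21, most calls in all 3 lineages were lower. Over all genes tested, 20.3% were called lower and 11.1% higher. The counts were 25 lower and 4 higher of 49 macrophage genes, 13 lower of 19 granulocyte genes and 20 lower of 25 basophil or mast cell genes, with median log2 fold changes of -1.71, -4.19 and -2.997 against -0.03 over all genes. With a floor of 3 reads for genes at 0, the granulocyte median was -3.32 and the basophil or mast cell median -2.86. Itgam, the CD11b integrin chain, fell from 5.02 ± 0.235 to 0.116 ± 0.0104 RPKM (n = 2, log2 fold change -5.48, edgeR adjusted p = 4.71e-05). Ccr2 fell by 5.38 (SE 0.31, edgeR adjusted p = 3.48e-06), Ltb4r1 by 5.23, Ifitm1 by 4.97, Slc6a4 by 4.58 and Il3ra, the IL-3 receptor alpha chain, fell by 2.997. Pglyrp1, a granule protein that binds peptidoglycan, fell from 22.6 ± 9.76 to 5.58 ± 1.42 RPKM (n = 2), a log2 fold change of -2.02 (edgeR adjusted p = 0.000594). The 25 lower macrophage calls became 16 without the first IL-21 plus LDHi library, and the 4 higher ones became 2 without the second.

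Between the 2 inhibitor groups, 15 of the 93 further genes were called lower with IL-21 than with IL-2 and 4 higher, against 16.7% and 9.38% of all genes, so neither count was a larger share than the background. The median log2 fold changes were -0.39, -0.48 and -0.24 for the macrophage, granulocyte and basophil or mast cell lists, against 0.01 over all genes. With a floor of 3 reads for genes at 0, the granulocyte median was 0.00 and the basophil or mast cell median -0.23. Ccr2 stood at 1.14 ± 0.149 RPKM with IL-21 plus LDHi and 30.4 ± 1.36 RPKM with IL-2 plus LDHi (n = 2, log2 fold change -4.55, edgeR adjusted p = 6.35e-06). Csf2ra, a chain of the GM-CSF receptor, had a log2 fold change of -1.77, Itga2 (an integrin chain) of -1.71, Il3ra of -2.14, Ltb4r1 of -4.90, Mmp9 of -4.67 and Mmp25 of -3.47. Il4 had 42 and 30 reads with IL-2 plus LDHi and 0 in both IL-21 plus LDHi libraries. The 4 higher calls varied from 1 to 7 as libraries were left out: 1 without the first IL-2 plus LDHi library, 2 without the second IL-2, the second IL-2 plus LDHi or the first IL-21 plus LDHi library, and 7 without either IL-21 library. When only these 2 groups were fitted, 24 were called lower and 9 higher.

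The test of the difference itself, the interaction, called 44 of 93 further genes lower and 1 higher, against 13.8% and 7.98% of all genes. The medians were -3.32, -3.51 and -3.16 against -0.08 over all genes, with no floor set for genes at 0. The 44 lower calls were 25 macrophage, 4 granulocyte and 15 basophil or mast cell genes. For these genes the inhibitor's change was more negative in IL-21 than in IL-2 cells. Some were near 0 with IL-2, such as Sirpa at 0.107 RPKM and Slc6a4 at 0.0597 RPKM, and could fall little further there. Ccr2 was not, at 24.0 to 29.95 RPKM with IL-2. How far low levels with IL-2 set the interaction was not tested. Sirpa had an interaction of -5.03 (SE 0.51, edgeR adjusted p = 0.000249), Ccr2 of -5.51 (SE 0.39, adjusted p = 3.16e-05) and Slc6a4 of -5.72 (SE 0.52, adjusted p = 0.000132). The 4 granulocyte calls became 2 without either IL-2 library, either IL-21 plus LDHi library or the first IL-2 plus LDHi library. The 1 higher call, Tlr2, a receptor for bacterial lipoproteins, was lost without any 1 of the IL-2, IL-2 plus LDHi or IL-21 plus LDHi libraries, with no filter on low counts, and when library size alone scaled the counts.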

How the data were processed

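Messenger RNA was sequenced in 10 libraries of cultured mouse CD8+ T cells. The deposited tables, 1 per library, give for each RefSeq transcript on mm10 the authors' read count and RPKM, per the file headers. The submitters' processing notes name TopHat2, Bowtie2 2.2.6, SAMtools 0.1.8, bedtools 2.25.0 and edgeR, without their roles; the handling of strand and of multiply matching reads is not stated there. Here the transcript with most reads over the 10 libraries was kept for each of 23992 symbols, of which 4343 had several transcripts. Counts of all 10 libraries were fitted by group with edgeR 4.0.16 (R 4.3.3) using TMM factors, the robust quasi-likelihood test and a filter at a minimum count of 10, which left 14357 genes. P-values were Benjamini-Hochberg adjusted over all of these genes, and a gene was called at an adjusted p below 0.05. The script was tested on simulated counts. RPKM served for levels only. Alternatives were other size factors, DESeq2 1.42.0, no filter, a fit of only the groups compared, a replicate block, and leaving out each library.

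Members, further lists and tests were chosen with earlier results of these data known. Members given library by library were the 6 with the highest group mean RPKM in each class, the factors Spi1, Cebpa, Gata1 and Gata2, and the receptors Csf1r, Csf3r, Fcer1a and Kit. C1qb, Epx and Cyp11a1 were added after their values were seen. Further genes named were up to 3 per lineage and comparison with the smallest p among those called. Adgre1 and Siglecf were matched by their older symbols, Emr1 and Siglec5.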

Additional observations from a re-analysis of the deposited data

Results flagged for a closer look

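The inhibitor's log2 change differed between IL-21 and IL-2 cells for 9 of the named lineage genes outside the 40 members, by the interaction term of the edgeR fit. The difference (change with IL-21 minus change with IL-2) was -5.033 for Sirpa, -4.96 for Clec4n and -5.513 for Ccr2 among macrophage genes. Sirpa stood at 0.107 RPKM with IL-2, 1.33 with IL-2 plus LDHi, 1.64 with IL-21 and between 0.400 and 0.840 with IL-21 plus LDHi. Ccr2 stood at 24.0 to 29.95 RPKM with IL-2, 29.5 to 31.4 with IL-2 plus LDHi, 37.5 to 53.3 with IL-21 and 1.04 to 1.25 with IL-21 plus LDHi. For granulocyte genes the difference was -6.871 for Mmp25, -4.487 for Mmp9 and -8.029 for Clec5a. Clec5a had 0 reads in both IL-2 libraries, so its value depends on the prior count and is no bound, and its call was lost without either IL-2 library, either IL-21 plus LDHi library or the first IL-2 plus LDHi library. For basophil or mast cell genes it was -5.718 for Slc6a4, -3.446 for Grm6 and -4.712 for Ptgs1. Grm6 stood at 0.0543 to 0.0650 RPKM with IL-2 and at 0.566 to 0.682 with IL-21 plus LDHi, which overlapped the 0.407 to 0.591 with IL-21. How far low levels with IL-2 set these differences was not tested. Groups of 2 libraries are too small for a test of single outlying libraries.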

How the results depend on the processing

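The total of further lineage genes called, both directions and all 3 lineages together, stayed within 1.5 times its reported value under every alternative run in 5 of the 7 comparisons. The smaller counts by lineage and direction moved by more than that under at least 1 alternative in all 7. For IL-21 against no cytokine the count of 20 became 31 with a replicate block, 1 when only the 2 groups were fitted, and 6 to 40 as single libraries were left out, with the extremes without the second no cytokine and the second IL-21 library. For IL-21 plus LDHi against IL-2 plus LDHi the count of 19 became 33 when only those groups were fitted. The further genes tested numbered 69 to 100 in these fits. Single genes were followed for 239 results only, namely changes of members and named further genes that were already called in the main fit. Of their 3788 values under alternatives none changed sign, 3577 stayed called and the others were no longer called. Since uncalled results were not followed, none of these could become newly called. The cause of the lost calls was not tested. Replicate numbers were not taken to pair the libraries, since nothing in the labels says so and the correlation of replicate differences was not high for every pair of groups: it was 0.483 for no cytokine with IL-21 and -0.147 to 0.112 for the 9 other pairs. The replicate block also moved the members called lower with IL-21 against no cytokine from 18 to 29, and DESeq2 gave 29. For IL-2 plus LDHi against IL-2 the block moved the members called lower from 5 to 9, the further granulocyte genes called higher from 2 to 4 and the further basophil or mast cell genes called higher from 3 to 5. Scaling by library size alone shifted the median of all genes by -0.138 (IL-2 against no cytokine), 0.118 (IL-2 plus LDHi against IL-2) and -0.14 (interaction). Over all genes, the calls for IL-21 against no cytokine numbered 1657 of 14357 tested, 91 of 13731 when only the 2 groups were fitted, and as single libraries were left out from 749 of 14945 (without the second no cytokine library) to 3967 of 14868 (without the first IL-21 library). Members with 0 reads in a group have a fold only as a bound, and those with 1 to 3 reads only a ratio with a wide counting interval.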

Other observations

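Growth factors of the myeloid lineages were measured in the same libraries. Il3, which expands basophils and mast cells, had 2 reads in the second library without cytokine and 0 in the other 9. Csf2, which encodes GM-CSF, stood at 0.635 and 0.558 RPKM without cytokine, 3.35 and 2.59 with IL-2, 0.874 and 1.62 with IL-21, 0.678 and 0.764 with IL-2 plus LDHi, and 0.0395 and 0.0193 with IL-21 plus LDHi. Csf2 rose with IL-2 against no cytokine (log2 fold change 2.29, SE 0.41, edgeR adjusted p = 0.00158) and fell by 5.39 with IL-21 plus LDHi against IL-21 (SE 0.61, edgeR adjusted p = 0.000203). Csf1, which encodes macrophage colony-stimulating factor, fell by 2.19 with IL-2 against no cytokine (SE 0.66, edgeR adjusted p = 0.0212), from 0.867 and 1.804 RPKM to 0.294 and 0.299.

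The platelet chemokine Pf4 stood at 201 and 257 RPKM without cytokine, 2.84 and 4.27 with IL-2, 107 and 87.9 with IL-21, 10.2 and 11.4 with IL-2 plus LDHi, and 13.8 and 15.6 with IL-21 plus LDHi. Pf4 and Csf2 were described after their values were seen.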
